A study of Mus musculus with 3 samples.

Results

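The genes followed here encode voltage-gated calcium channels: the pore-forming alpha1 genes Cacna1a, Cacna1b, Cacna1c and Cacna1h, the alpha2delta genes Cacna2d1, Cacna2d2 and Cacna2d3, and the beta genes Cacnb1, Cacnb3 and Cacnb4. They were chosen by symbol, and each gene was read by its brightest probe set with a single symbol. Of the 10 genes listed 9 had such a probe set, among 30142 genes named in this way. Cacnb3 is not analysed here. The RNA came from primary dorsal root ganglion neurons of male ICR mice (an outbred strain) aged 8 to 10 weeks, cultured for 72 hours. The control array was made from cells in DMEM with B27, a serum-free supplement for neurons. Another came from cells in the same medium with recombinant SEMA3E, a secreted guidance protein, at 1 µg/ml, and the last from cells with SEMA3E at 1 µg/ml and a SEMA3E-blocking IgG at 1 µg/ml. The blocking medium thus also held SEMA3E, and no array of the IgG without SEMA3E was analysed here. Each medium has 1 array, so the differences are between single arrays and carry neither error nor test, and the small number of arrays limits their precision. The labels do not say how many animals gave each culture.

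Voltage-gated calcium channels open when a neuron depolarises and let calcium in from outside. The alpha1 subunit forms the pore and sets the channel type, the beta subunit binds it inside the cell and helps bring it to the membrane, and the alpha2delta subunit lies outside and raises the number of channels at the surface. In dorsal root ganglia the N-type channel CaV2.2 supports transmitter release from the central ends of pain fibres, and the T-type channel CaV3.2 sets excitability. The alpha2delta-1 protein is the binding site of gabapentin and pregabalin, drugs for neuropathic pain, and its RNA is known to rise in these ganglia after nerve injury.

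The members were first described by their promoters, since these are a property that their choice did not use. The RefSeq table of promoter windows (GRCm38.p6, from 250 bases before to 50 after a transcription start) held 14 windows for 8 of the 10 genes. Of the 14 windows 9 held the GC box (GGGCGG, either strand, overlapping matches included), which 35.7% of all 32851 windows of that length held. The TATA box (TATAAA, either strand) was in 0 of the 14 and in 13.6% of all windows. The cAMP response element TGACGTCA was in 0 of the 14 and in 1.79% of all, and CCAAT (either strand) in 4 of the 14 and in 37.4% of all. Windows of the same gene are not independent, and a match is only a match of letters. A pair of windows is shown. The first is that of Cacna2d1, the gene of the gabapentin-binding subunit. The other is that at the most upstream of the listed starts of Cacnb4, the member whose value differed between media. Read in triplets from atgtcgtcc to the cag before gtaCCGCCC, this Cacnb4 window holds no stop codon. The GGGCGG of the window lies within that stretch. Whether the stretch is coding sequence, and whether Cacnb4 has unlisted starts further upstream, was not tested. GC boxes are in capitals. The Cacna2d1 window lies at chr5:15934441-15934740 on the plus strand of GRCm38.p6, is 80.0% G or C and holds 42 CpG pairs and 7 GC boxes. The Cacnb4 window lies at chr2:52676094-52676393 on the minus strand, is 78.3% G or C and holds 40 CpG pairs and 6 GC boxes. The median over all windows was 52.7% G or C and 7 CpG pairs. Both windows shown were therefore richer in G, C and CpG than the median window. The other windows of Cacnb4 had 27 and 5 CpG pairs and 0 GC boxes.
Cacna2d1: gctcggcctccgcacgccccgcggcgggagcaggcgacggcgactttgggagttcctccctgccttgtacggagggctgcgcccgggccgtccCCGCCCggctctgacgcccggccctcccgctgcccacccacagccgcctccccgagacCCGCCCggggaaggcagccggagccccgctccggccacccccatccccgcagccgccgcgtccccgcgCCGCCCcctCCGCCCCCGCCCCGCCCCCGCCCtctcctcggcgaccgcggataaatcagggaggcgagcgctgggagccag
Cacnb4: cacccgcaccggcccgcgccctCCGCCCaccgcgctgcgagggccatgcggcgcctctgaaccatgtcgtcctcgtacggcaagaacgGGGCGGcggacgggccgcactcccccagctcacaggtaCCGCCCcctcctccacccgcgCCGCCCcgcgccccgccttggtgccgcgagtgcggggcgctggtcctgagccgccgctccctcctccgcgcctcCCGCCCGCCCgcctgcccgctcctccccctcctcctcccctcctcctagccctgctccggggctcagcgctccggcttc

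Values are intensities as the authors deposited them, and log2 values are log2(intensity + 1). A gene was taken as measured above background when its mean log2 value was at or above 5.48 (43.7 intensity units), the 95th percentile of 492 vomeronasal receptor genes, which are taken as unexpressed in this tissue. All 9 members with a probe set lay above it, as did 17653 genes in all. Probe sets differ in how bright they are for the same amount of RNA, so members are compared with themselves across media and not with each other. Of 13 sensory neuron markers 12 had a probe set and all 12 lay above the floor. All measured markers of satellite glia (5 of 6 listed), Schwann cells (3 of 6) and fibroblasts (4 of 5), and 4 of 6 macrophage markers, also lay above it, with Csf1r and Itgam below. Of 5 skeletal muscle markers, a list for contrast, 3 lay above it as well, so passing the floor does not by itself show that a cell type was present. In RNA of cultures that may hold several cell types, fewer cells of a type and less RNA per cell cannot be told apart.

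The pore-forming members held the same value in all 3 media. Cacna1b, which encodes the CaV2.2 pore of the N-type channel (probe set TC0200003118.mm.1), was at 733 intensity units in control medium, 733 with SEMA3E and 733 with SEMA3E and IgG, a log2 value of 9.52 in each. Cacna1a, the CaV2.1 pore of the P/Q-type channel (TC0800000955.mm.1), was at 472 units in each of the 3 arrays (log2 8.89). Cacna1c, the CaV1.2 pore of an L-type channel (TC0600003005.mm.1), was at 526 units in each (log2 9.04). These 3 genes of high-voltage-activated channels thus showed no difference on the arrays in either direction. Cacna1h, the CaV3.2 pore of the low-voltage-activated T-type channel (TC1700001661.mm.1), was at 90.4 units in each array (log2 6.51), which is 1.03 above the floor. No other member lay as near the floor.

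The alpha2delta members were identical as well. Cacna2d1 (TC0500000112.mm.1) was at 8959 units in control medium, with SEMA3E and with SEMA3E and IgG (log2 13.13), 7.65 above the floor. Cacna2d2, whose alpha2delta-2 protein also binds gabapentin (TC0900001367.mm.1), was at 371 units in each array (log2 8.54). Cacna2d3, whose alpha2delta-3 protein does not (TC1400001643.mm.1), was at 359 units in each (log2 8.49). No alpha2delta gene was higher or lower in the SEMA3E array or in the array with IgG.

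The beta members held the single difference. Cacnb4, the beta4 subunit (TC0200003533.mm.1), was at 789 units in control medium, 772 with SEMA3E and 772 with SEMA3E and IgG, or 9.63, 9.59 and 9.59 on the log2 scale. Its control value was the highest of the 3, and the 2 arrays with SEMA3E held one identical value, so the addition of IgG was not accompanied by a return toward control. The log2 difference from control was −0.03 in both arrays, and the intensity differed by −2.21%. Cacnb1, the beta1 subunit (TC1100003664.mm.1), was at 189 units in each array (log2 7.57).

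**Figure D1:**
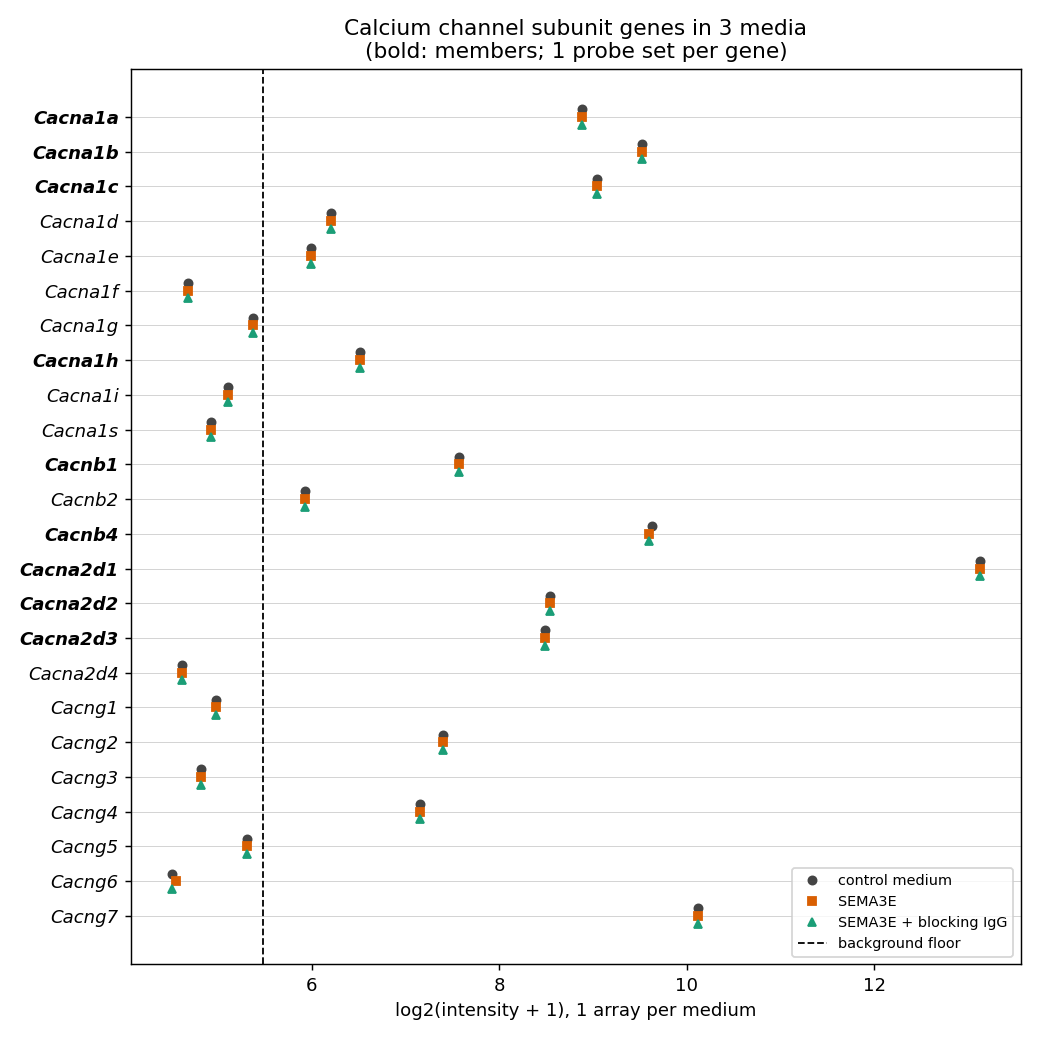
Log2(intensity + 1) (horizontal axis) of the 24 measured calcium channel subunit genes (rows; members in bold) in control medium (circles), with SEMA3E (squares) and with SEMA3E and blocking IgG (triangles), 1 array each, with the background floor of 5.48 as a dashed line; symbols of 1 gene are set apart vertically to be seen. The 3 symbols of each member stand in line except for Cacnb4, whose control value of 9.63 lies to the right of the others at 9.59, and members are not to be ranked by brightness.

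Read against the other genes, these counts were close to the background. In the comparison of SEMA3E with control 1 of the 9 members was lower by at least 0.01 on the log2 scale, as were 11.0% of the 17653 genes, and 0 were higher, against 5.59% of the genes. Between SEMA3E with IgG and SEMA3E alone 0 of 9 members were lower and 0 higher, while 9.42% of the genes were lower and 9.19% higher. Between SEMA3E with IgG and control 1 of 9 was lower, beside 10.3% of the genes, and 0 higher, beside 6.80%. Of the 9 members 0 were apart by a ratio of at least 5 to 4 in any comparison, beside 0.731% of the genes in the first comparison, 0.782% in the second and 0.884% in the third. The median difference of the members was 0 in each of the 3 comparisons, as was that of all genes. The comparisons share arrays, so the difference of Cacnb4 from control in the array with IgG rests on the same control value as that with SEMA3E alone and adds no separate support.

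Cacnb4 itself had a small difference among the genes that differed. Of the 1934 genes lower with SEMA3E than in control medium, 75.1% were further below control than Cacnb4, and their median log2 difference was −0.06. With IgG as well, 76.1% of 1813 lower genes were further below. The form of its difference, an identical value in both SEMA3E arrays with control higher, occurred in 577 genes (3.27%), and the reverse, with control lower, in 241 (1.37%). The 5 genes whose pair of differences from control was nearest to that of Cacnb4, over 3 arrays, were A930013F10Rik, Gm9795, Ppm1j, Ldhb and Gins3, at distances of 0.00016 to 0.00027 on the log2 scale.

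Sensory neuron markers were partly lower than in control medium and partly identical to it. Of the 12 measured, 5 were lower by at least 0.01 with SEMA3E than in control medium and 0 higher (4 still lower after loess, where Scn9a turned), and 4 were lower and 0 higher with IgG. With SEMA3E 6 were identical to control. Avil and Scn9a, lower with SEMA3E, held their control values with IgG, unlike Cacnb4. Of all genes 11.0% were lower with SEMA3E, and of those in the bins from log2 10 upward 19.0% to 32.1% were, where most of these markers lie. With IgG the shares lower than in control medium were 10.3% of all genes and 16.2% to 29.0% in those bins. Tubb3, the neuronal beta-tubulin, was at 12589, 11305 and 11305 units in control medium, with SEMA3E and with IgG, the same form as Cacnb4 with a larger log2 difference of −0.16. The summed intensity of the 12 markers was 359374 units in control medium, 353817 with SEMA3E and 354374 with IgG. Their mean log2 value was 12.31, 12.28 and 12.29. Such sums follow the brightest probe sets and are not amounts of a cell type. Here Uchl1 held 205992 units in each array and Nefl 92650 in control medium. Satellite glial markers summed to 10061, 10301 and 9898 units, but their mean log2 value was 9.28, 9.21 and 9.12, and with SEMA3E 2 of 5 were lower than in control medium (Kcnj10 −0.24, Atp1b2 −0.26) and 1 higher (Fabp7 0.13). With IgG Kcnj10 was at −0.54 and Atp1b2 at −0.26 from control. Schwann cell markers summed to 131548 units in each array, of which Pmp22 held 130696. Fibroblast markers summed to 11230, 11227 and 11227, and macrophage markers to 3806, 4059 and 3978. The macrophage markers did not move together. Lyz2 was higher than in control medium with SEMA3E (0.19) and with IgG (0.11). Cd68 was lower with SEMA3E (−0.08), and Adgre1 was lower with IgG (−0.04). That sum also includes Csf1r and Itgam, which lay below the floor. The part of cell composition in the difference of Cacnb4 was not tested.

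Brighter genes differed between arrays more often than dim ones. Among genes with a mean log2 value within 0.25 of Cacnb4 (995 genes), 25.8% differed by at least 0.01 in at least 1 comparison. The same share was 15.2% around Cacna1h, 16.4% around Cacnb1, 20.1% around Cacna2d3, 20.7% around Cacna2d2, 21.0% around Cacna1a, 22.2% around Cacna1c and 25.6% around Cacna1b. Around Cacna2d1 it was 42.9% of 238 genes. Identical or nearly identical values were thus usual for genes as dim as Cacna1h and less usual for genes as bright as Cacna2d1.

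**Figure D2:**
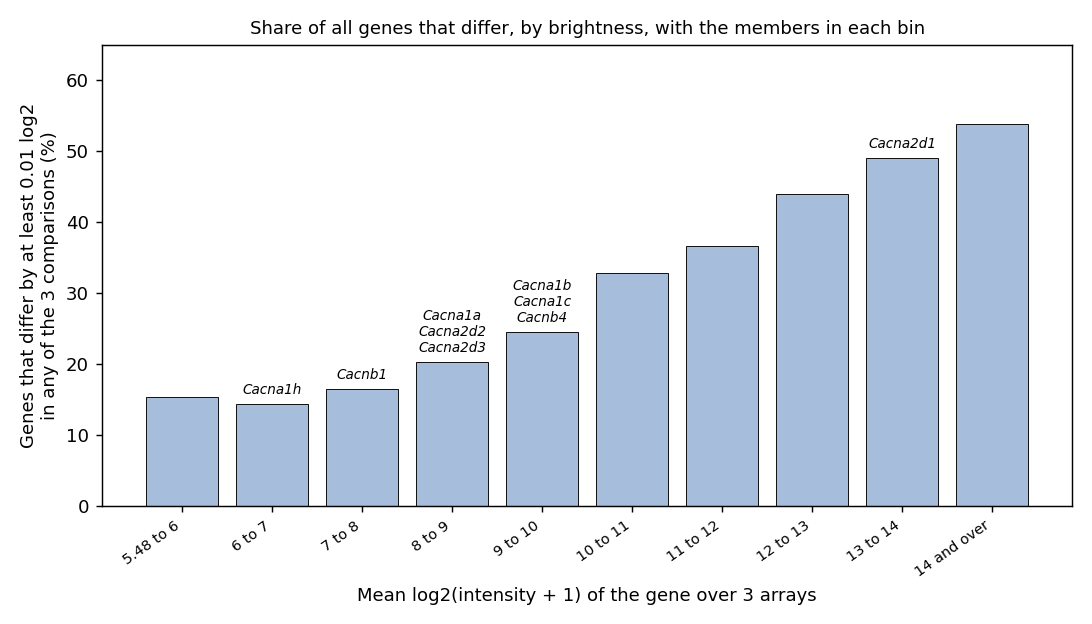
Share of genes (vertical axis, percent) that differed by at least 0.01 on the log2 scale in at least 1 of the 3 comparisons, by mean log2(intensity + 1) (horizontal axis, bins of the 17653 genes above the floor), with the members named above the bar of their bin. The share goes from 15.3% in the dimmest bin, past 24.4% in the bin of Cacnb4, to 49.0% in that of Cacna2d1.

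The resolution of the deposited values also bears on what identical means. The 65956 probe sets of the control array held only 25830 distinct values, and 50.2% of the genes above the floor shared all 3 of their values, to the last digit, with at least 1 other probe set. Cacna1h shared its 3 values with 18 other probe sets, Cacna2d2 with 4, Cacna2d3 with 3 and Cacnb1 with 2. Cacna1a, Cacna1b, Cacna1c, Cacna2d1 and Cacnb4 shared the whole set of 3 with none. Within single arrays, however, the value of Cacnb4 was held by 4 other probe sets with SEMA3E and by 3 with IgG, and by 0 in control medium, and that of Cacna1b by 1 other in each SEMA3E array. The level at which the 2 SEMA3E arrays agree for Cacnb4 is thus itself a shared value. Equal values need not mean equal RNA, for members with shared values and also for the 4 identical members that shared the whole set with none. Of all genes above the floor 74.9% were identical in all 3 arrays. How the values came to be shared, or to be identical between arrays, was not tested.

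The rest of the family showed no difference above the floor. The list of calcium channel subunits held 16 further genes, of which 15 had a probe set and 6 lay above the floor. In each comparison 0 of these 6 were higher or lower. Of all genes above the floor 74.9% were identical in all 3 arrays. Among genes within 0.25 log2 of each of the 6, 14.2% to 26.6% differed in at least 1 comparison. Cacna1e (log2 5.99) and Cacnb2 (5.93) lay below the floor at the 99th percentile, 6.06. Among alpha1 genes, Cacna1d, the CaV1.3 L-type pore, was at 72.9 units in each array, and Cacna1e, the CaV2.3 R-type pore, at 62.6. Among the beta genes Cacnb2 was at 60.1 units in each. Of the gamma genes, which resemble the gamma subunit of the skeletal muscle channel and in neurons largely serve AMPA receptors, Cacng2 was at 168 units, Cacng4 at 141 and Cacng7 at 1111, the same in each medium. Below the floor were Cacna1g and Cacna1i, which encode the other T-type pores (40.4 and 33.4 units), Cacna1s of skeletal muscle (29.5), Cacna1f of the retina (24.7), Cacna2d4 (23.5), Cacng1 (30.5), Cacng3 (27.3), Cacng5 (38.8) and Cacng6. Of the 3 T-type pore genes Cacna1h was thus the one above the floor. Cacng6 was at 21.8 units in control medium, 22.4 with SEMA3E and 21.8 with IgG, all below the floor, where values have no order. Cacng8, whose probe set carries several symbols, is not analysed here.

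Other ion channel families, taken by the form of their symbols, were also mostly identical. All 3 arrays held identical values in 14 of 15 calcium channel subunit genes above the floor and in 7 of 10 sodium channel genes. Symbols that begin with Kcn cover potassium channel genes and also Kcnip3, which encodes a channel-interacting protein. Of the Kcn genes above the floor 47 of 54 were identical, as were 11 of 11 TRP channel genes, beside 74.9% of all genes above the floor. These shares were not tested against each other.

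Some genes whose products act with the channels held larger differences than any member. Thrombospondins are secreted proteins that bind alpha2delta-1. Thbs1 was at 6660 units in control medium, 6606 with SEMA3E and 8532 with SEMA3E and IgG. The array with IgG stood above the others, by a log2 difference of 0.37 from SEMA3E and 0.36 from control, while SEMA3E and control differed by −0.01. The other thrombospondin genes above the floor were identical in all arrays, among them Thbs2 at 174 units and Thbs4 at 79.0.

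Of 31 listed genes for proteins that bind or regulate the channels, 24 were measured and 21 lay above the floor. With SEMA3E 5 of the 21 were lower than in control medium and 0 higher (4 still lower after loess, where Cdk5 turned), beside 11.0% and 5.59% of all genes. The 5 lower genes (Stac, Dpysl2, Nedd4, Akap6 and Cdk5) lie in the bins from log2 10 upward, where 19.0% to 32.1% of genes were lower. Wwp1, Nedd4l, Prkacb, Gnb1 and Gnao1 also lie there and were identical. The rest of the 21 lie in dimmer bins, where 3.98% to 13.6% were lower, so the bright-bin share is not a like measure for 5 of 21. With IgG 5 were higher and 1 lower than with SEMA3E alone (4 still higher after quantile normalization, where Nedd4 turned), beside 9.19% and 9.42% of all genes. In the bins from log2 10 upward 14.9% to 29.2% of genes were higher. Stac, Dpysl2, Nedd4 and Akap6 are both among these higher genes and among those lower with SEMA3E. Both counts rest on the same SEMA3E array, so the second adds no separate support. Against control, the IgG array had 2 higher and 1 lower, beside 6.80% and 10.3% of all genes. Dpysl2, which encodes CRMP2, a cytosolic protein that binds CaV2.2 and promotes its place at the membrane, was at 10281, 9291 and 10281 units in control medium, with SEMA3E and with IgG. Its SEMA3E value was the low one (log2 difference −0.15), and the value with IgG was that of control. Stac, an adaptor protein that slows inactivation of L-type channels, was at 1293, 1224 and 1379 units, lowest with SEMA3E and highest with IgG (0.17 between them). Cdk5, a neuronal kinase that phosphorylates channel subunits, was at 43309, 42705 and 38372 units, lowest with IgG (log2 difference −0.17 from control). Lrp1, a receptor that binds alpha2delta-1 and aids its trafficking, was at 655, 655 and 662 units, and Usp5, a deubiquitinase that stabilises CaV3.2, at 246 in each array. The calmodulin genes and Grin1 are not analysed here.

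In the presynaptic release machinery, which the N-type and P/Q-type channels trigger, 3 of 21 genes above the floor were lower with SEMA3E than in control medium and 0 higher, near the 11.0% of all genes that were lower. Vamp1, a vesicle SNARE, was at 1653 units in control medium and 1533 in both arrays with SEMA3E (log2 difference −0.11). Snap25, a plasma membrane SNARE, was at 21761 units in control medium and 21300 in both others, the same form and nearly the same log2 difference (−0.03) as Cacnb4. Its direction with SEMA3E against control turned when the arrays were rescaled by loess (0.03) or by quantile normalization (0.01). With IgG its log2 difference from control stayed negative, at −0.0015 under loess and −0.046 under quantile normalization. Syt1, the calcium sensor of release, was at 1672 units in control medium, 1639 with SEMA3E and 1672 with IgG.

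Calcium handling downstream of the channels was mostly identical. All 15 genes for calcium stores, pumps and exchangers above the floor were identical in the 3 arrays, beside 74.9% of all genes above the floor. Among them were Atp2a2, the pump of the endoplasmic reticulum (5219 units), and Ryr2, a ryanodine receptor (81.4). Of 24 calcium sensors and effectors above the floor 3 were lower with SEMA3E than in control medium and 0 higher, again near the 11.0% of all genes. With IgG 3 were lower than in control medium and 1 higher, beside 10.3% and 6.80% of all genes. The higher one was Creb1, a transcription factor activated by calcium signals (log2 difference 0.08). Pvalb, a cytosolic calcium buffer of large-diameter sensory neurons, was at 367, 282 and 280 units, so that both arrays with SEMA3E lay below control (log2 differences −0.38 and −0.39). Vsnl1, a neuronal calcium sensor, was at 3867, 3602 and 3519 units, and Camk2g, a calmodulin-dependent kinase, at 7492, 6911 and 6984. Of 9 calcium-activated potassium and chloride channel genes above the floor 1 was lower with SEMA3E, beside 11.0% of all genes: Kcnn4, an intermediate-conductance potassium channel, at 479 units in control medium and 431 in both others. Kcnma1, the large-conductance channel, was at 1605 units in each array.

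**Figure D3:**
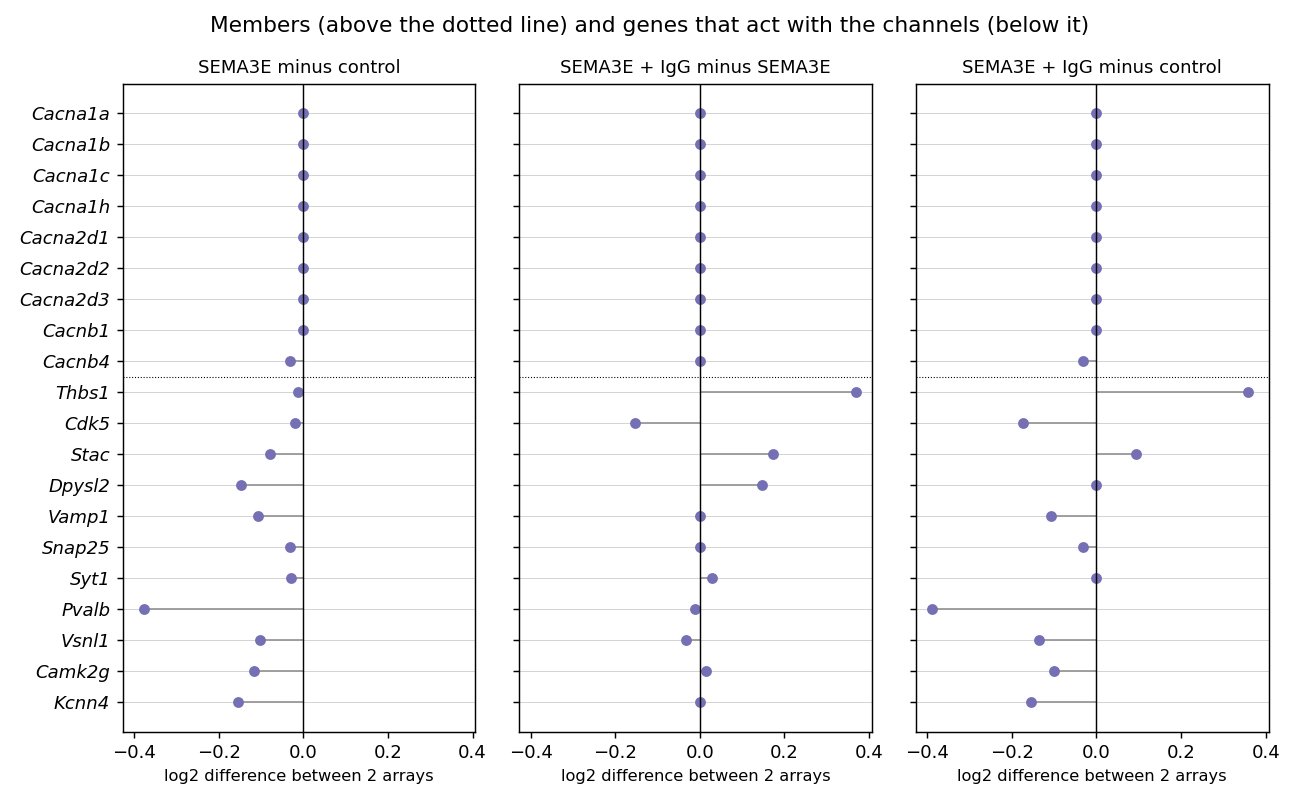
Log2 differences between 2 arrays (horizontal axis) in the 3 comparisons (panels) for the 9 measured members (above the dotted line) and for 11 genes that act with the channels (below it, the 3 furthest apart from each list); each point is 1 gene and there are no replicates. All members lie at 0 except Cacnb4 at −0.03 against control in both SEMA3E arrays, while Thbs1 reaches 0.37 and Pvalb −0.39; the lower genes were picked for their size.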

How the data were processed

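RNA was isolated with TRIzol, purified on SV columns and labelled with GeneChip WT Pico reagents, per the labels' protocols. The intensities deposited by the authors are on a linear scale; the submitters' processing notes name Affymetrix Expression Console. Its version, how probes were summarised and arrays normalized, and the build are not stated in these sources. The medians of the 3 arrays were 44.5 to 45.0 units. Names came from the platform annotation, with 827 symbols updated through gene numbers (RefSeq, GRCm38.p6), and for 355 genes the brightest of several probe sets was used. Differences are between log2(intensity + 1) values, with 0.01 as the smallest that counts. There was no test, since each medium has 1 array. Counting and rescaling were tested on simulated data. The members, the gene lists, the floor and the rule for named genes (all subunits, the 3 genes furthest apart in each other list, and Thbs1, Thbs2, Thbs4, Dpysl2, Usp5 and Lrp1) were chosen with earlier results of these data known. The families by symbol and the sharing of values were looked at after these values were seen. The skeletal muscle markers summed to 282 units in each array. The tools were matplotlib 3.10.9, statsmodels 0.14.6, scipy 1.17.1, pandas 2.3.3 and numpy 2.4.6 in Python 3.11.15.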

Additional observations from a re-analysis of the deposited data

How the results depend on the processing

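Cacnb4 stayed below control in both arrays with SEMA3E under centring on the median, loess, quantile normalization and a pseudocount of 16, at −0.03 with SEMA3E and −0.03 to −0.04 with IgG. The count of members that differ, 1 of 9 in each comparison with control, was 0 when at least 0.05 on the log2 scale or a ratio of 5 to 4 was asked for. Between SEMA3E with IgG and SEMA3E alone the count was 0, and 2 after quantile normalization, where Cacnb4 came to −0.02 and Cacna1b to −0.01; the cause was not tested. The mean of all probe sets could change no member, since each has 1 probe set. The median difference of the members stayed within 0.01 of 0 under every rescaling listed. All 9 members lay above the floor at its 90th and 99th percentile and above one from olfactory receptor genes. Rescaling of single named genes was added after the data were seen. Between SEMA3E and control it turned Cdk5 from −0.02 to 0.048 under loess and Snap25 from −0.03 to 0.030 under loess and 0.011 under quantile normalization; the cause was not tested. No paired analysis was possible because each medium has 1 array. The signal of Cacna1h, 1.03 above the floor, limits what can be seen for that gene.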
